A study of Drosophila melanogaster with 58 samples.

Results

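A set of 19 protein-coding genes of Drosophila melanogaster, all known by a CG number alone, had transcripts in adult mushroom body neurons at many times their pupal level. The set holds every gene symbol made of CG and digits whose mean was at least 10 CPM (counts per 1000000 of a library's total) in both adult groups and at least 8 times the highest of 10 pupal group means, with pupal means under 0.5 CPM set to 0.5. Of 4315 such symbols in the table, 19 met the rule (0.44%), and 48 of the 8138 genes with other symbols met the same thresholds (0.59%). Adult and pupal levels therefore chose the members, and the gap between them is given below as a description, with no test.

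The study measured RNA in mushroom body gamma neurons and alpha-beta neurons of the brain during axon growth. It used 58 libraries, each made from 1000 sorted GFP-positive cells. Gamma neurons gave 5, 5, 5, 3, 5 and 5 libraries, and alpha-beta neurons 5, 5, 6, 4, 5 and 5, at 18, 21, 24, 27 and 30 h after pupa formation and in adults. Adults were 3 to 5 days past eclosion, all flies were kept at 25 °C, and sexes were mixed at random in every group. No group carried a named mutation or treatment, and the driver of the GFP is not given in the sources used here. Nothing in the labels says that libraries of a group came from separate flies, so p-values measure the spread between these libraries, which may be technical.

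Gamma and alpha-beta neurons are Kenyon cells, the intrinsic neurons of the mushroom body, which stores olfactory memories. Gamma neurons prune their larval axons early in metamorphosis and then regrow them, while alpha-beta neurons grow theirs for the first time in the pupa. A CG number is the placeholder that a fly gene keeps until it is named after a phenotype, a homolog or a function, so many CG genes have a predicted enzyme or transporter family but little or no direct study.

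Library totals were 4403619 to 17690132 counts in the 10 adult libraries and 5340159 to 27242758 in the 48 pupal libraries, so 3 counts, the limit that a count of 0 allows, equalled 0.11 to 0.681 CPM (a limit for counting error alone, as reads from PCR carry no molecular identifiers and do not count molecules). Genes with a count numbered 5266 to 7464 in adult libraries against 6371 to 8544 in pupal libraries. The Kenyon cell transcription factor gene ey averaged 443 ± 124 CPM in adult gamma neurons and 342 ± 169 CPM in adult alpha-beta neurons (SD, n = 5 each). All 20 genes of a Kenyon cell list had counts in each cell type and age class. Their summed levels were 14656 to 25082 CPM in adult gamma libraries and 7286 to 12773 CPM in adult alpha-beta libraries. In pupal libraries these sums were 9827 to 24283 CPM in gamma and 5373 to 21863 CPM in alpha-beta neurons. Of marker lists for other cells, the list for other neurons summed to 427 to 3079 CPM in adult gamma libraries and 564 to 3205 CPM in adult alpha-beta libraries, against 280 to 912 CPM in pupal gamma libraries and 119 to 661 CPM in pupal alpha-beta libraries. Glial markers summed to 376 to 3422 CPM in adult gamma and 787 to 2937 CPM in adult alpha-beta libraries, against 312 to 1488 CPM and 553 to 1900 CPM in pupal gamma and pupal alpha-beta libraries. The glial transcription factor gene repo was at 2.61 ± 5.79 CPM in adult gamma neurons and had no count in adult alpha-beta neurons (SD, n = 5 each). In adult libraries muscle markers summed to 0 to 271 CPM in gamma and 1.14 to 137 CPM in alpha-beta neurons, against 103 to 659 CPM in pupal gamma and 70.3 to 482 CPM in pupal alpha-beta libraries. Fat body markers summed to 48.8 to 147 CPM in adult gamma and 57.8 to 185 CPM in adult alpha-beta libraries, against 37.5 to 1517 CPM in pupal gamma and 37.8 to 281 CPM in pupal alpha-beta libraries. Hemocyte markers summed to 0 to 103 CPM in adult gamma and 0.681 to 179 CPM in adult alpha-beta libraries, against 0.0576 to 102 CPM in pupal gamma and 1.91 to 91.1 CPM in pupal alpha-beta libraries. Photoreceptor markers summed to 19.7 to 128 CPM in pupal gamma and 64.7 to 213 CPM in pupal alpha-beta libraries, and their adult sums are given with CG31808. Markers without a count in either adult group included gcm and Mdr65 (glia), AkhR and Obp99b (fat body), He (hemocytes), and Act88F and TpnC41C (muscle). In adult gamma and alpha-beta neurons Gs2 (glia) averaged 804 ± 628 and 921 ± 747 CPM, against 55.9 and 49 CPM in pupae. Gad1 (other neurons) averaged 1136 ± 854 and 948 ± 888 CPM (SD, n = 5 each), against 30.2 and 18.7 CPM. Gad1 and Vmat, also an other neuron marker, met the members' thresholds. So did sNPF of the Kenyon cell list, at 1678 and 597 CPM in adult gamma and alpha-beta neurons, against 19.2 and 16.2 CPM in pupae. Means of ogre (glia) and DAT (other neurons) were lower in adults, for ogre 17.1 and 70.4 CPM against 223 and 212 CPM. The part of such cells in the adult levels of the 19 genes was not tested. In bulk libraries, more cells of a type that expresses a gene and more RNA per cell cannot be told apart.

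Adult libraries carried counts for 15 to 19 of the 19 genes, and pupal libraries for 0 to 8. The summed level of the set was 1814 to 3615 CPM in adult libraries against 0 to 99.3 CPM in pupal libraries. Within gamma neurons the group means of this sum were 19.7, 10.1, 12.4, 37.5 and 14.2 CPM at 18, 21, 24, 27 and 30 h, and 2240 CPM in adults. Within alpha-beta neurons they were 29.4, 32.8, 32.2, 23.8 and 38.9 CPM over the same stages, and 3139 CPM in adults. The pupal means show no steady climb toward the adult value in either cell type. The rule kept every pupal group mean of a member far below its adult means, which limits any climb, so nothing is read from this. The pupal library with the highest sum, alpha-beta 30 h replicate 5 at 99.3 CPM, stood far below the lowest adult library.

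**Figure D1:**
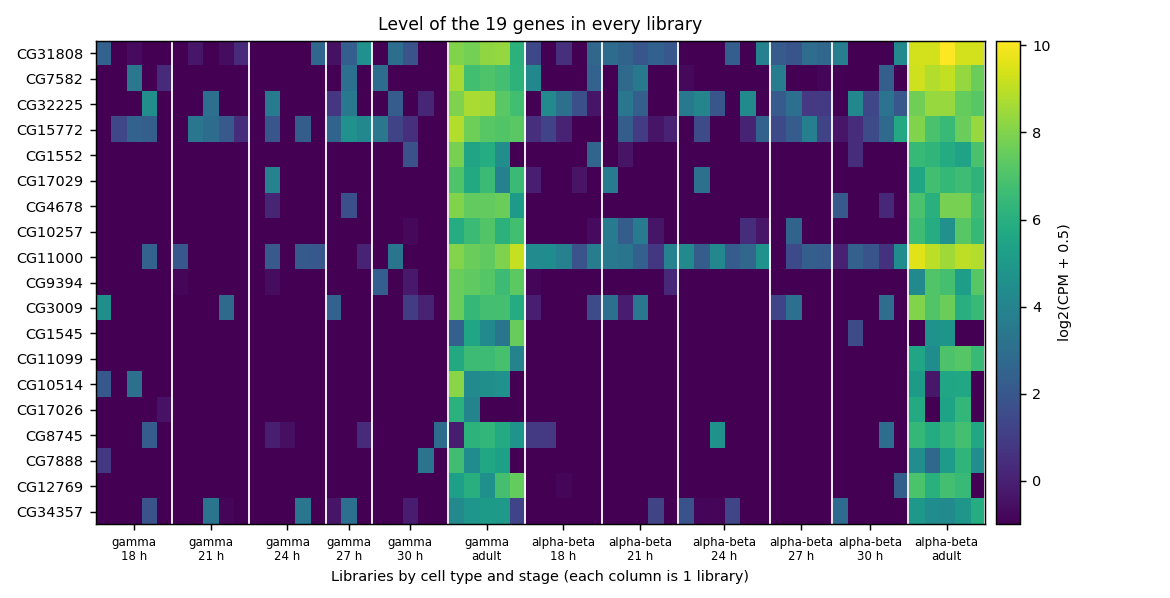
Level of each of the 19 genes (rows, ordered by adult CPM per kb of exon) in each of 58 libraries (columns, grouped by cell type and stage), coloured as log2(CPM + 0.5). The adult columns are bright for most genes, with dark cells for genes that had no count in single adult libraries, while CG15772, CG31808, CG32225 and, in alpha-beta neurons, CG11000 also show scattered pupal signal.

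For 10 of the 19 genes every adult library lay above every pupal library, against 1.01% of the 10072 genes tested. The rule used this contrast, so nothing is read from the count. The adult to highest pupal ratio, taken with the lower adult mean, ran from 8.37 to 158 (median 24.3) over the 16 genes whose highest pupal mean reached 0.5 CPM. CG4678 (158), CG9394 (94.1), CG12769 (83.7) and CG1552 (62.6) had the largest ratios. Without adult gamma replicate 1 the ratio of CG1552 was 27.8, below that of CG32225 (29.2), the ratio of CG7582 was 23.3 against 36.4 with all libraries, and that of CG10514 was 7.08 against 10.9. The ratio of CG7888 was 11.4 without alpha-beta replicate 4 and 17.7 with it. CG11099 had no count in any of the 48 pupal libraries, and CG1545 and CG17026 had counts in 1 pupal library each, so no ratio is given for these 3. Pupal signal was most frequent for CG15772, with counts in 34 of 48 pupal libraries, for CG11000 (31), for CG31808 (27) and for CG32225 (25). Just inside the fold threshold were CG34357 (8.37), CG10514 (10.9) and CG8745 (11), and just outside it CG14757 (7.80), CG15459 (7.18) and CG8613 (7.13). Just inside the level threshold were CG1545, CG17026 and CG34357, whose lower adult means were 10.4, 16.5 and 22.5 CPM, and just outside it CG31345 and CG31974, at 6.98 and 5.81 CPM.

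Some members have predicted roles in lipid metabolism. CG9394 belongs to the glycerophosphodiester phosphodiesterases, which cleave deacylated phospholipids. It had 188, 169, 146, 96.9 and 157 CPM in the adult gamma libraries, against 19.6, 137, 112, 36.9 and 151 CPM in the adult alpha-beta libraries. The groups overlapped, and this gene had the smallest relative spread of the set in gamma neurons (coefficient of variation 22.7%). CG3009, of the secreted phospholipase A2 family, had 188, 84.1, 109, 110 and 57.3 CPM in adult gamma libraries, against 260, 134, 196, 61.5 and 92.9 CPM in adult alpha-beta libraries, again with overlap. CG8745, of the aminotransferase class that includes ethanolamine-phosphate phospho-lyase, had 0.387, 71.6, 82.2, 54.1 and 26.4 CPM in adult gamma libraries, against 83.1, 57, 77.7, 111 and 48.6 CPM in adult alpha-beta libraries. Gamma replicate 1 was nearly without it, although that library had the highest summed level of the set among gamma adults.

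Peptide and inositol phosphate enzymes formed another group. CG4678 is a metallocarboxypeptidase, of the class that trims basic residues from peptide precursors. It had 257, 172, 171, 193 and 32.7 CPM in adult gamma libraries, against 121, 65.8, 228, 227 and 99.0 CPM in adult alpha-beta libraries. All 10 values exceeded the highest pupal library (3.76 CPM, alpha-beta 30 h replicate 1). CG17029 and CG17026 are neighbouring inositol monophosphatase family genes, of the class that returns inositol from inositol phosphates. CG17029 had 132, 53.5, 94.4, 14.3 and 94.2 CPM in adult gamma libraries, against 46.1, 108, 84.9, 101 and 74.9 CPM in adult alpha-beta libraries. Its neighbour CG17026 had 67.1, 15.6, 0, 0 and 0 CPM in adult gamma libraries, against 54.6, 0, 42.7, 81.7 and 0 CPM in adult alpha-beta libraries. Counts of CG17026 were thus found in 5 of 10 adult libraries, while CG17029 had counts in all 10.

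Membrane proteins included CG7888, of the proton-coupled amino acid transporter family, and CG34357, a receptor-type guanylyl cyclase. CG7888 had 102, 20.7, 48.4, 39.6 and 0 CPM in adult gamma libraries, against 21.5, 6.08, 34.2, 77.6 and 21.6 CPM in adult alpha-beta libraries. CG34357 had 18.4, 28.1, 32.2, 31.9 and 1.82 CPM in adult gamma libraries, against 30.1, 20.4, 18.7, 28.8 and 57.7 CPM in adult alpha-beta libraries. The adult groups overlapped for both genes. CG34357, which spreads its reads over the longest exon sequence of the set (7704 bp), had the lowest level per kb (3.48 CPM per kb). CG10514 belongs to the ecdysteroid kinase-like family, whose members are thought to phosphorylate small molecules such as steroids. It had 281, 19.7, 22.5, 23.9 and 0 CPM in adult gamma libraries, against 32.4, 0.331, 46.1, 48.6 and 0 CPM in adult alpha-beta libraries. Its gamma mean of 69.4 ± 119 CPM was 16.5 ± 11.1 CPM without replicate 1 (SD, n = 5 and 4).

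The other 10 genes are given without a role. CG31808 had the highest adult level per kb of exon (253 CPM per kb over both groups), followed by CG7582 (241), CG32225 (193) and CG15772 (123). CG31808 had 256, 221, 303, 322 and 69.4 CPM in adult gamma libraries, against 652, 655, 1103, 644 and 659 CPM in adult alpha-beta libraries. It was the single member whose adult cell types did not overlap, gamma lying below alpha-beta throughout. CG7582 had 404, 108, 133, 112 and 71.1 CPM in adult gamma libraries, against 633, 447, 541, 323 and 193 CPM in adult alpha-beta libraries. Gamma replicate 1 was the one library that made its groups overlap. CG11000 had 263, 196, 168, 248 and 561 CPM in adult gamma libraries, against 763, 518, 365, 517 and 460 CPM in adult alpha-beta libraries, and here gamma replicate 5 overlapped the alpha-beta range.

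CG32225 had 250, 412, 375, 155 and 106 CPM in adult gamma libraries, against 210, 332, 331, 179 and 148 CPM in adult alpha-beta libraries. CG15772 had 449, 200, 150, 135 and 151 CPM in adult gamma libraries, against 258, 122, 89.9, 191 and 335 CPM in adult alpha-beta libraries. The gamma and alpha-beta means of CG32225 were 260 and 240 CPM, and those of CG15772 were 217 and 199 CPM. Without gamma replicate 1 the gamma mean of CG15772 was 159 ± 28.2 CPM (SD, n = 4), below the alpha-beta mean. CG10257 had 57.9, 94.6, 134, 70.3 and 106 CPM in adult gamma libraries, against 101, 57.6, 24.2, 149 and 87.4 CPM in adult alpha-beta libraries. CG11099 had 52.8, 97.9, 97.1, 119 and 15 CPM in adult gamma libraries, against 45.2, 20.5, 128, 146 and 91.5 CPM in adult alpha-beta libraries. These 4 genes had counts in every adult library.

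Lower or patchier levels marked CG12769, CG1552 and CG1545. CG12769 had 38.4, 62.5, 23.2, 112 and 178 CPM in adult gamma libraries, against 123, 66.3, 110, 87.7 and 0 CPM in adult alpha-beta libraries. CG1552 had 227, 43.9, 59.1, 22.3 and 0 CPM in adult gamma libraries, against 86.1, 75.8, 55.8, 41.2 and 119 CPM in adult alpha-beta libraries. CG1545, which lies next to CG1552, had 4.94, 46.1, 19, 9.48 and 186 CPM in adult gamma libraries, against 0, 26, 26, 0 and 0 CPM in adult alpha-beta libraries. CG1545 and CG1552 did not share their high library: replicate 5 was highest for CG1545 and at 0 for CG1552. Over the whole set 13 genes had a count in all 10 adult libraries, and the within-group coefficient of variation had a median of 57.9% in gamma and 50.6% in alpha-beta neurons.

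**Figure D2:**
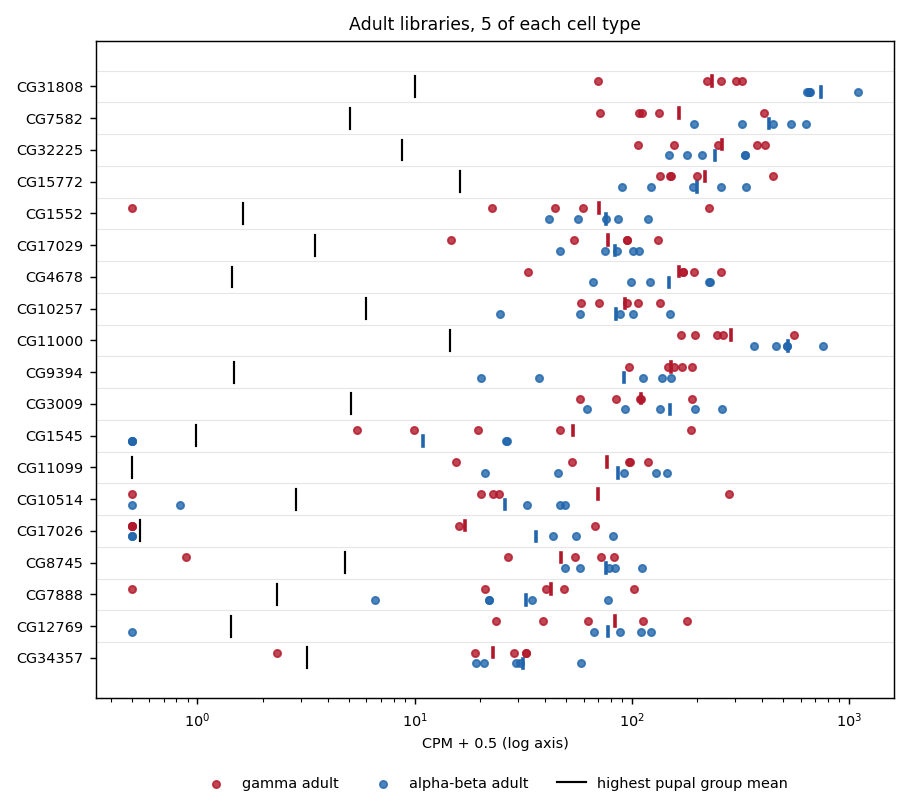
Level of the 19 genes in the 5 adult gamma libraries (red points, upper row of each gene) and the 5 adult alpha-beta libraries (blue points, lower row), on a log axis of CPM + 0.5; coloured ticks are group means and the black tick is the highest pupal group mean. The points of the 2 cell types overlap for every gene except CG31808, and points at the left edge are libraries with no count.

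Gamma and alpha-beta adults were compared next, a contrast the choice of members did not use directly. The rule did ask for at least 10 CPM in both adult groups, so genes confined to 1 adult cell type could not be members. The shares over all genes below carry no such limit, so nothing is read from the gap to them. None of the 19 genes was called (edgeR quasi-likelihood test with Benjamini-Hochberg adjustment over 10072 genes, adjusted p under 0.05), where 3.6% of all genes tested were. No member reached an unadjusted p under 0.05 either, against 20% of all genes. Fold changes (log2, gamma over alpha-beta) ran from -1.75 for CG31808 to 2.52 for CG1545, with a median of -0.06 against 0 over all genes tested. The value of CG1545 was 0.83 without gamma replicate 5, at an edgeR adjusted p of 1, the 10 fits without single adult libraries giving adjusted p-values of 0.582 to 1. By group mean, 9 genes were higher and 10 lower in gamma neurons, but 5 and 14 without gamma replicate 1, when the means of CG15772, CG10514, CG4678 and CG7888 changed order. Leaving out each of the other 9 adult libraries gave 7 to 10 genes higher in gamma neurons, with 0 to 3 genes changing order. In the fit of all 12 groups SEs were 1.13 to 2.32, and no gene's 95% interval lay within a 4-fold difference in either direction. That fit therefore does not show that the cell types have like levels. With the adult groups alone in the fit, SEs of CG31808, CG7582, CG11000 and CG1545 were 0.387, 0.499, 0.426 and 1.9. The intervals thus depend on which libraries set the spread. DESeq2 called none of the 19 genes, against 14.9% of all genes with an adjusted p. With sample weights, limma-voom called 3.11% of all genes and 2 members, CG31808 (log2 fold change -1.75, adjusted p = 0.0141) and CG1545 (4.41, adjusted p = 0.0433), whose 186 CPM in gamma replicate 5 stood apart.

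For CG31808 the means were 234 ± 100 CPM in adult gamma neurons and 743 ± 201 CPM in adult alpha-beta neurons (SD, n = 5 each), and edgeR put the log2 fold change at -1.75 (SE 1.5, adjusted p = 0.623). Groups without overlap were found for 2.13% of all genes, 1.15% with gamma below. With the adult groups alone in the edgeR fit its log2 fold change was -1.71 (SE 0.387, adjusted p = 0.0774). The edgeR and DESeq2 alternatives and the fits without single libraries gave adjusted p-values of 0.0774 to 0.753. Photoreceptor markers also summed lower in gamma adults, at 18.8 to 217 CPM against 314 to 732 CPM in alpha-beta adults. That gap lay in norpA, a phospholipase C gene, at 81.0 ± 53.2 CPM in gamma and 471 ± 192 CPM in alpha-beta adults (SD, n = 5 each). The opsin gene ninaE was at 7.97 ± 11.2 CPM in gamma and 0.385 ± 0.86 CPM in alpha-beta adults (SD, n = 5 each), and 6 of 12 measured photoreceptor markers in gamma and 7 of 12 in alpha-beta adults had no count, among them ninaC, Rh4 and Rh6. Their part in the CG31808 values was not tested.

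Adult gamma replicate 1 stood above the other gamma adults for several members. Its summed level was 3237 CPM, against 1814 to 2167 CPM in the other 4. Without it the gamma sums lay entirely below the alpha-beta sums of 2638 to 3615 CPM, and CG7582 had no overlap either, at 106 ± 25.7 CPM (SD, n = 4) in gamma against 427 ± 174 CPM (SD, n = 5) in alpha-beta neurons. The share of all genes without overlap was not counted with gamma replicate 1 left out, so nothing is read from these gaps. The gamma mean of CG1552 was 31.3 CPM without this library and 70.5 CPM with it, that of CG17026 was 3.89 against 16.5 CPM, and that of CG7888 was 27.2 against 42.2 CPM. In the edgeR fits with 1 adult library left out, none of the 19 genes was called. This library also had the highest sums among gamma adults of glial (3422 CPM), other neuron (3079 CPM), photoreceptor (217 CPM) and muscle (271 CPM) markers. It was highest as well for a list of mature neuron genes, such as synaptic vesicle and ion channel genes (30299 CPM). Its sums of fat body (61.9 CPM), hemocyte (67.7 CPM) and Kenyon cell (17953 CPM) genes lay within the range of the other gamma adults. The part of other cells in its member levels was not tested.

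**Figure D3:**
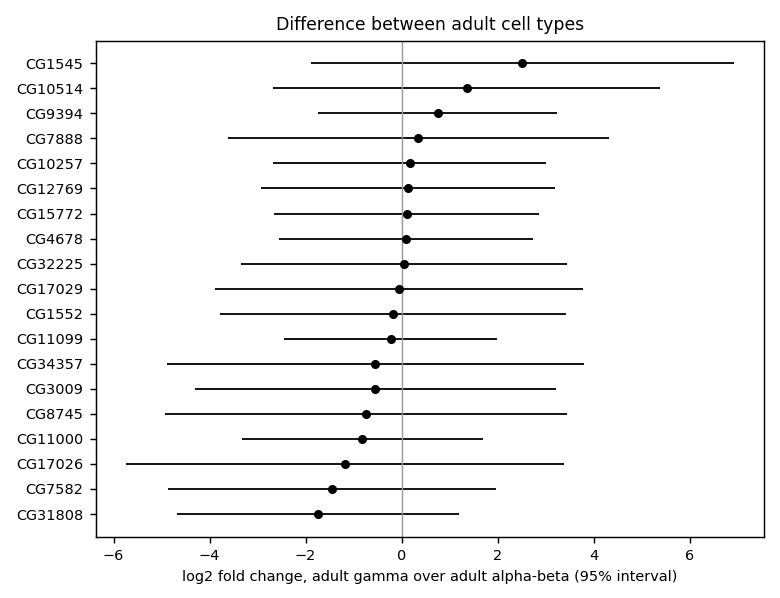
Fold change (log2, adult gamma over adult alpha-beta neurons) of each of the 19 genes, with 95% intervals as bars from the edgeR fit of all 12 groups and a line at 0. Estimates run from -1.75 for CG31808 to 2.52 for CG1545, and every interval crosses 0 in this fit. The CG1545 estimate was 0.83 without gamma replicate 5. SEs of CG31808, CG7582, CG11000 and CG1545 were smaller with the adult groups alone in the fit.

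Among pupal libraries the question was whether any member rose as axons grew. Between 30 h and 18 h none of the 19 genes was called in gamma neurons (background 0.0397% of 10072 genes) and none in alpha-beta neurons (background 0.0794%), by edgeR with Benjamini-Hochberg adjustment. Of the 19 genes, 5 in gamma and 4 in alpha-beta neurons had no count at either stage and could not be called. The rule also kept every pupal group mean far below the adult means, which limits any rise by 30 h. At an unadjusted p under 0.05 there were 3 in gamma neurons (11.4% of all genes) and 5 in alpha-beta neurons (9.49% of all genes). DESeq2 called 1 in gamma neurons, CG10257, which was higher at 30 h, and 3 in alpha-beta neurons. Of these 3, CG34357 was higher at 30 h, while CG10257 and CG17029 were lower. With limma-voom none was called in either cell type. DESeq2 called 6.04% of all genes in gamma and 4.1% in alpha-beta neurons, and limma-voom called 1.21% in gamma and 1.6% in alpha-beta neurons. In those calls the gene had a count in at most 2 libraries of either group. In the edgeR test of whether this change differed between cell types, none of the 10072 genes was called (0%), with 7.58% under an unadjusted p of 0.05.

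In alpha-beta neurons the 5 genes were CG4678, CG34357, CG12769, CG15772 and CG1545. CG4678 had counts in 2 libraries at 30 h (3.76 and 0.722 CPM) and none at 18 h. At 30 h, CG34357 (6.99 CPM), CG12769 (4.63 CPM) and CG1545 (2.44 CPM) each had counts in 1 library. CG15772 had 0.3, 0.838, 2.44, 6.37 and 52 CPM at 30 h, against 0.909, 1.87, 0.593, 0 and 0 CPM at 18 h. edgeR estimated this difference at 4.15 on the log2 scale (SE 1.62, adjusted p = 0.457). A single library, replicate 5, held the high value. That library also carried 20.8 CPM of CG11000, 18.4 CPM of CG31808 and 4.63 CPM of CG12769, each the highest at that stage in alpha-beta neurons. In gamma neurons the highest pupal mean of CG15772 was at 27 h, with 5.42, 24.1 and 17.4 CPM in its 3 libraries, against 10.02, 1.92, 0.961, 0 and 0 CPM at 30 h. The libraries at 24.1 and 17.4 CPM carry the letter J in their names, and the one at 5.42 CPM an H. Adult libraries carry J or k, and the alpha-beta 27 h library with a J had 1.91 CPM. What the letter stands for is not given, and its part in these values was not tested.

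A comparison of pupal gamma with pupal alpha-beta neurons over the 5 stages was added after the values were seen, with stage and cell type as terms. Of the 19 genes, 11 passed the filter on low counts, and 2 of these, CG11000 and CG10257, were called, both lower in gamma neurons (edgeR, adjusted p = 0.0363 and 0.0109). Of all 9824 genes tested, 9.3% were called, with 5.95% lower in gamma neurons. CG11000 averaged 1.29 ± 2.43 CPM in 23 pupal gamma libraries, 7 of which had a count, and 9.20 ± 7.80 CPM in 25 pupal alpha-beta libraries, 24 of which had a count (SD). Its log2 fold change was -2.97 (SE 0.95), and the gamma mean was the lower one at each of the 5 stages. Without alpha-beta 30 h replicate 5 the adjusted p of CG11000 was 0.0771.

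At 18 h CG11000 had 0, 0, 0, 5.05 and 0 CPM in gamma libraries, against 20.1, 20.7, 14, 3.11 and 12.3 CPM in alpha-beta libraries. At 24 h it had 0, 3.83, 0, 3.87 and 3.53 CPM in gamma libraries, against 19.2, 4.33, 17.9, 4.26, 5.78 and 25.8 CPM in alpha-beta libraries. The groups overlapped at 18 h. At 24 h they did not, the highest gamma value being 3.87 CPM and the lowest alpha-beta value 4.26 CPM. The share of all genes without overlap at 24 h was not counted, so nothing is read from that gap. In adults the order was the same by group mean, 287 ± 158 CPM in gamma and 525 ± 147 CPM in alpha-beta neurons (SD, n = 5 each), without passing the test (log2 fold change -0.82, SE 1.28, edgeR adjusted p = 0.889).

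CG10257 rests on far fewer libraries. Its counts came from 1 of 23 pupal gamma libraries and 8 of 25 pupal alpha-beta libraries. At 21 h it had no count in the 5 gamma libraries, against 11.7, 4.27, 11.2, 0.278 and 0 CPM in alpha-beta libraries. DESeq2 (adjusted p = 0.39) and limma-voom (adjusted p = 0.166) did not call CG10257. Among all genes DESeq2 called 9.91% and limma-voom 8.76%. Its adult levels, 92.6 ± 30.1 CPM in gamma and 83.9 ± 46.9 CPM in alpha-beta neurons (SD, n = 5 each), overlapped.

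**Figure D4:**
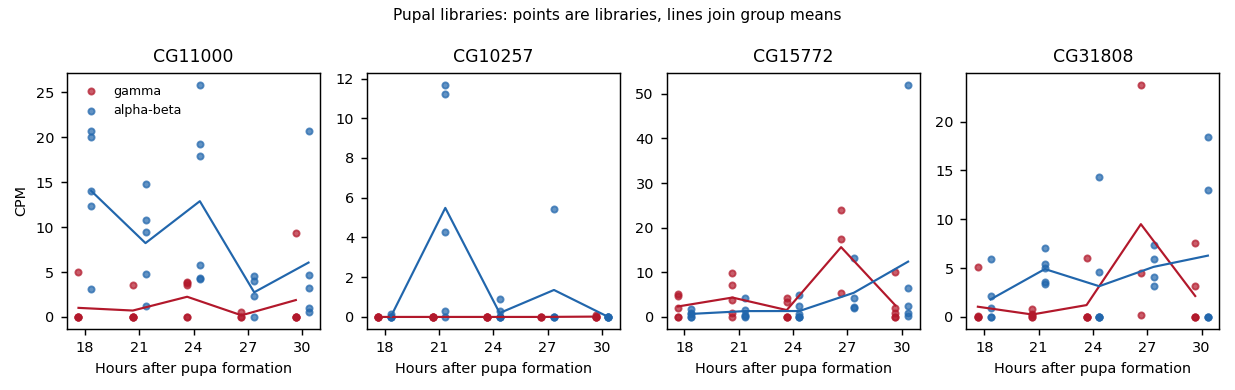
CPM of CG11000, CG10257, CG15772 and CG31808 in pupal libraries at 18 to 30 h after pupa formation, with points for libraries, lines through group means, gamma in red drawn left of alpha-beta in blue; each panel has its own linear axis. CG11000 sits lower in gamma than in alpha-beta neurons at every stage, CG10257 appears mainly in alpha-beta neurons at 21 h, and CG15772 peaks in single libraries at 27 and 30 h.

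The annotation places the 19 genes singly, apart from 2 neighbouring pairs, CG1545 with CG1552 and CG17026 with CG17029. All 19 symbols matched Ensembl release 115, and exon lengths ran from 717 to 7704 bp (median 1929). Of 38 flanking protein-coding gene positions, 35 were filled by genes in the table, 4 of these by members of the pairs, and no other flanking gene met the adult and pupal thresholds. The flanking gene of CG10514 on one side, CG10513, had 42.96 ± 72.9 CPM in adult gamma and 2.94 ± 6.58 CPM in adult alpha-beta neurons (SD, n = 5 each), against a highest pupal group mean of 0.116 CPM. CG1537, beside CG1545, had 34.7 and 16.7 CPM in adult gamma and alpha-beta neurons, against a highest pupal mean of 4.50 CPM.

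**Figure D5:**
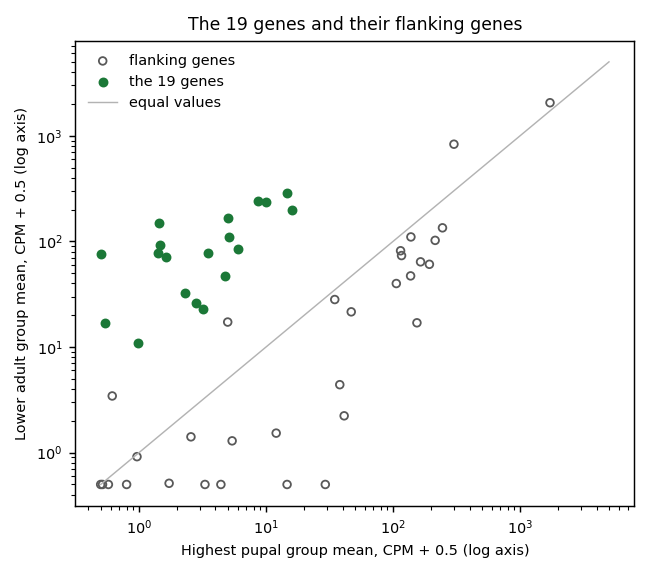
Lower adult group mean against highest pupal group mean, both as CPM + 0.5 on log axes, for the 19 genes (filled green points) and the flanking protein-coding genes that are not members (open grey points), with a line of equal values. The 19 genes lie well above the line by construction of the rule, and most flanking genes lie near or below it.

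Gene overlap limits some of these values, because the library method does not mark strand. Exon bases were shared with a gene on the opposite strand by 7 members, and their reads cannot be told apart. For CG31808, CG7582, CG11099 and CG7888 the partner genes (Cyt-c-d, Cap-D2, CG13869 and CG6321) had adult means of 0 to 6.03 CPM. The partners of CG15772, CG10257 and CG3009 had more: lin-52 had 81.3 and 72.9 CPM, aPKC 110 and 171 CPM, and Cbp80 15.8 and 5.74 CPM in adult gamma and alpha-beta neurons. The highest pupal group means of these partners were 116, 138 and 112 CPM. Another 4 members lie in an intron of a larger gene, CG9394 in ktub on the same strand, and CG32225 in SCCRO4 and CG17026 and CG17029 in brm on the opposite strand. None of these host genes had an adult mean above its highest pupal mean, for instance 46.6 CPM in gamma adults and 62.2 CPM in alpha-beta adults for brm, against 137 CPM.

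Listed genes of related pathways were compared between adults and 30 h pupae, in a contrast added for genes outside the set. In gamma neurons edgeR called 10.2% of 10072 genes, of which adults had the higher level for 5.06% and the lower level for 5.18% of those tested. In alpha-beta neurons 12.5% were called, 4.69% higher and 7.8% lower. Of 8 neuropeptide processing genes other than CG4678, 3 rose in gamma adults and 3 in alpha-beta adults, and none fell. The prohormone convertase gene amon rose in gamma adults (log2 fold change 2.22, SE 0.49, adjusted p = 0.00118) and in alpha-beta adults (1.93, SE 0.49, adjusted p = 0.00384). Pal2, which encodes an amidating lyase, rose by 2.56 on the log2 scale (SE 0.35, adjusted p = 2.83e-07) in gamma and 3.14 (SE 0.36, adjusted p = 1.92e-09) in alpha-beta adults. Neither of the 2 glycerophosphodiester phosphodiesterase genes tested besides CG9394 was called.

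Of 20 genes of mature neurons, such as synaptic vesicle and ion channel genes, 16 rose in gamma adults and 15 in alpha-beta adults, and none fell. The synaptobrevin gene nSyb rose by 1.64 on the log2 scale (SE 0.21, adjusted p = 2.93e-08) in gamma and 1.79 (SE 0.21, adjusted p = 2.17e-09) in alpha-beta adults. The median of this list was 1.69 in gamma adults and 1.78 in alpha-beta adults, against -0.07 and -0.16 over all genes tested. Of 14 nuclear receptor and hormone response genes, 2 rose and 2 fell in gamma adults, and 3 rose and 2 fell in alpha-beta adults. From this list ftz-f1 met the members' thresholds, at 85.9 and 212 CPM in gamma and alpha-beta adults, against 0.277 and 0.544 CPM in pupae. Hr51, a nuclear receptor gene needed for axon regrowth of gamma neurons, fell by 1.05 (SE 0.29, adjusted p = 0.0111) in gamma adults and by 1.36 (SE 0.29, adjusted p = 0.000536) in alpha-beta adults on the log2 scale.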

How the data were processed

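The deposited table, whose headers call the values raw counts, covers 12453 gene symbols in 58 libraries. STAR is named in the submitters' processing notes, while the counting program and genome build are not given in the sources used here, so no coordinates are printed. No count column lacked a sample (0 such columns). Total counts per library set the depth and the floor of 3 counts. The 114 within-group library pairs differed far beyond counting noise (lowest chi-square per degree of freedom 86.0).

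Levels are CPM of library totals, the scale on which the members were chosen. Differences were tested with edgeR 4.0.16 (R 4.3.3) quasi-likelihood F-tests, two-sided, with all 12 groups in 1 fit, TMM factors and filterByExpr (minimum count 10, minimum total 15), which kept 10072 genes, and Benjamini-Hochberg adjustment over all of them. SEs are the absolute log2 fold change over the square root of F, and 95% intervals are 1.96 SEs. The pooled pupal comparison used the 48 pupal libraries with stage and cell type as terms, and was added after values were seen, as were the adult against 30 h contrasts of listed genes. The fit was tested on simulated data, and no outcome of that test is used here.

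Members and gene lists were chosen with earlier results of these data known. Members were named by adult level, adult to pupal ratio, spread, distance from the thresholds and adjacency, which took in all 19. Alternatives were DESeq2 1.42.0, limma 3.58.1 voom with sample weights, other scaling, no filter, only the groups compared, a replicate block, a sheet block (runs of 12 sheet numbers) and leaving out each library. Exon lengths and neighbours came from Ensembl annotation release 115.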

Additional observations from a re-analysis of the deposited data

Results flagged for a closer look

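Single libraries stood apart from the other 4 of their adult group for several of the 19 genes, by a gap to the nearest library that exceeded Dixon's critical share of the group's range (0.71 for 5 libraries). Of 38 adult groups of single genes, 8 held such a library. Chance flags about 1 in 20 groups of normally distributed values. CPM was used here without a log, the groups share their libraries, and the rate over all genes was not counted. No excess is therefore read from the 8.

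Adult gamma replicate 1 was high for 5 genes: CG15772 at 449 CPM (next library 200 CPM), CG10514 at 281 CPM (next 23.9 CPM), CG7582 at 404 CPM (next 133 CPM), CG1552 at 227 CPM (next 59.1 CPM) and CG17026 at 67.1 CPM (next 15.6 CPM). It also stood apart in the summed level of the 19 genes, 3237 CPM (next 2167 CPM). Adult gamma replicate 5 was high for CG11000 at 561 CPM (next 263 CPM) and CG1545 at 186 CPM (next 46.1 CPM). Adult alpha-beta replicate 3 was high for CG31808 at 1103 CPM (next 659 CPM).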

How the results depend on the processing

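The rule gave 19 genes. It gave 46 at 4 times the highest pupal mean, 14 at 16 times, 22 with TMM-scaled CPM, 24 with group medians (17 shared) and 18 to 20 without single adult libraries. Without gamma adult replicate 1, CG10514 and CG17026 left the set and CG14757, CG15459 and CG8613 entered it. CG1545 left without alpha-beta adult replicate 2 or 3, and CG34357 without gamma adult replicate 2, 3 or 4. Members called numbered 0 in adult gamma against alpha-beta neurons, but 2 by limma-voom. In 30 h against 18 h they numbered 0, but 3 by DESeq2 in alpha-beta and 1 by DESeq2 in gamma neurons. In the added pupal comparison they numbered 2, but 1 by DESeq2, 1 by limma-voom and 1 with all 12 groups in the fit, where CG11000 was called and CG10257 was not. Leaving out single libraries gave 0 to 0 calls in adult gamma against alpha-beta neurons and in both 30 h against 18 h comparisons, and 1 to 2 in the pupal comparison. With the replicate block the calls were 0, 0, 0 and 2. Same-numbered libraries did not deviate together (correlations -0.07 to 0.20), so the numbers are not taken to pair them. Over all genes, DESeq2 called 1443 in adult gamma against alpha-beta neurons, 396 in alpha-beta and 584 in gamma neurons at 30 h against 18 h, where edgeR called 363, 8 and 4. With only the groups compared edgeR called 25, 19 and 18, limma-voom called 161 and 122 at 30 h against 18 h, and the replicate and sheet blocks called 23 and 25 in alpha-beta and 10 and 13 in gamma neurons. For adult against 30 h, DESeq2 called 2465 in alpha-beta (edgeR 1258) and 2167 in gamma neurons (edgeR 1032), and edgeR with only the groups compared called 758 and 465. Fold changes were recomputed for CG31808, CG7582, CG1545 and CG11000 in adults and for CG11000 and CG10257 in pupae, and none of these changed sign. Adult group means changed order for up to 4 genes without single adult libraries, an alternative chosen after seeing the data. The cause of the moved counts was not tested. Values near 0.11 to 0.681 CPM lie at the limit of depth.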
